A study of Rattus norvegicus with 10 samples.

Results

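Transcripts of 10 tubular injury markers, Havcr1, Spp1, Lcn2, Cd44, Clu, Vcam1, Vim, Cdkn1a, Reg3g and Gdf15, were followed in rat kidney cortex. They were found by symbol among the 32545 genes of the table, each with 1 entry, and all 10 were among the 13971 genes tested. The libraries were made from cortex RNA of left kidneys, taken from male rats 11 to 12 weeks old after the kidney had been flushed with buffered saline. Every animal had the Dahl salt-sensitive (SS) background, an inbred line prone to hypertension on salt. One group was wild type (SS_WT, 5 libraries) and the other carried Kcnj16_m1 (5 libraries), which the series calls a knockout of the potassium channel gene Kcnj16. The labels give neither the change made to the gene nor the diet. They also do not state that each library is a different animal, so the p-values reflect the spread between libraries, which may be technical. Levels are FPKM, in which fragments are scaled to gene length and library depth, and this allows genes of different length to be set side by side.

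In a healthy adult tubule most of these genes are quiet, and they are switched on when epithelial cells are damaged, lose their polarity and start repair. The products of Havcr1 (kidney injury molecule-1, a receptor for dead cells) and Lcn2 (lipocalin, which binds iron-carrying siderophores) reach the urine and are measured there as signs of tubular damage. Spp1 (osteopontin) and Clu (clusterin, an extracellular chaperone) are secreted proteins, Cd44 and Vcam1 are adhesion receptors, and Vim is an intermediate filament of mesenchymal and dedifferentiated cells. Cdkn1a encodes the cell cycle inhibitor p21, Reg3g an antibacterial lectin, and Gdf15 a stress-induced hormone of the TGF-beta family.

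The reads behind the values came to between 16361516 and 23385968 per library. Kcnj16 transcript was present in every library, from 307 to 372 FPKM, so it cannot check the genotype labels. Of the 20 proximal tubule markers listed, 19 were found and all 19 passed the filter on low values. One wild-type library, replicate 3, stood apart in its thick ascending limb markers, of which all 6 were lowest there, with a summed level of 492 FPKM against 957 to 1123 FPKM in the other wild-type libraries. The proximal tubule list summed to 7636 FPKM there against 10169 to 11582 FPKM. Most of that gap lay in Kap, since without it the sums were 6088 FPKM and 6575 to 7462 FPKM, and 7 of the 19 genes were lowest and 2 highest in replicate 3. The distal tubule and collecting duct sums were also lowest in wild-type replicate 3, at 161 and 173 FPKM. The inner medulla sum was highest there, at 63.0 FPKM. Over all genes, pairs of wild-type libraries that include replicate 3 had a chi-square per gene of 25.7 to 43.5. The other wild-type pairs had 10.8 to 18.4. Replicate 3 also had the highest level of 8 of the 10 injury markers, and the count of lower markers is therefore also given without it. The part of these differences in the results was not tested.

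Of the 10 markers, 8 were lower in Kcnj16_m1 and the other 2 did not pass (limma, Benjamini-Hochberg adjusted p under 0.05 over all genes). Over all genes tested, 28.5% passed in either direction, 14.0% as lower and 14.6% as higher. The median log2 fold change was -1.53 over the 10 markers and 0.0079 over all genes tested. For 7 markers every mutant library lay under every wild-type library, which held for 9.34% of all genes tested. The markers that passed were Havcr1, Spp1, Lcn2, Reg3g, Cd44, Clu, Vim and Gdf15, while Vcam1 and Cdkn1a did not. Without wild-type replicate 3 the count was 6, and without wild-type replicate 4 it was also 6, since Gdf15 no longer passed and Reg3g no longer reached the filter. Leaving out replicate 3 moved the log2 fold change of Havcr1 to -4.14 and that of Spp1 to -3.12 (limma adjusted p = 9.45e-05 and 0.000419). Havcr1 reached the filter on low values (0.5 FPKM in 5 libraries) in 5 wild-type libraries but in 1 mutant library, and Reg3g in no mutant library. Both were therefore tested only because they were high in wild type.

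**Figure D1:**
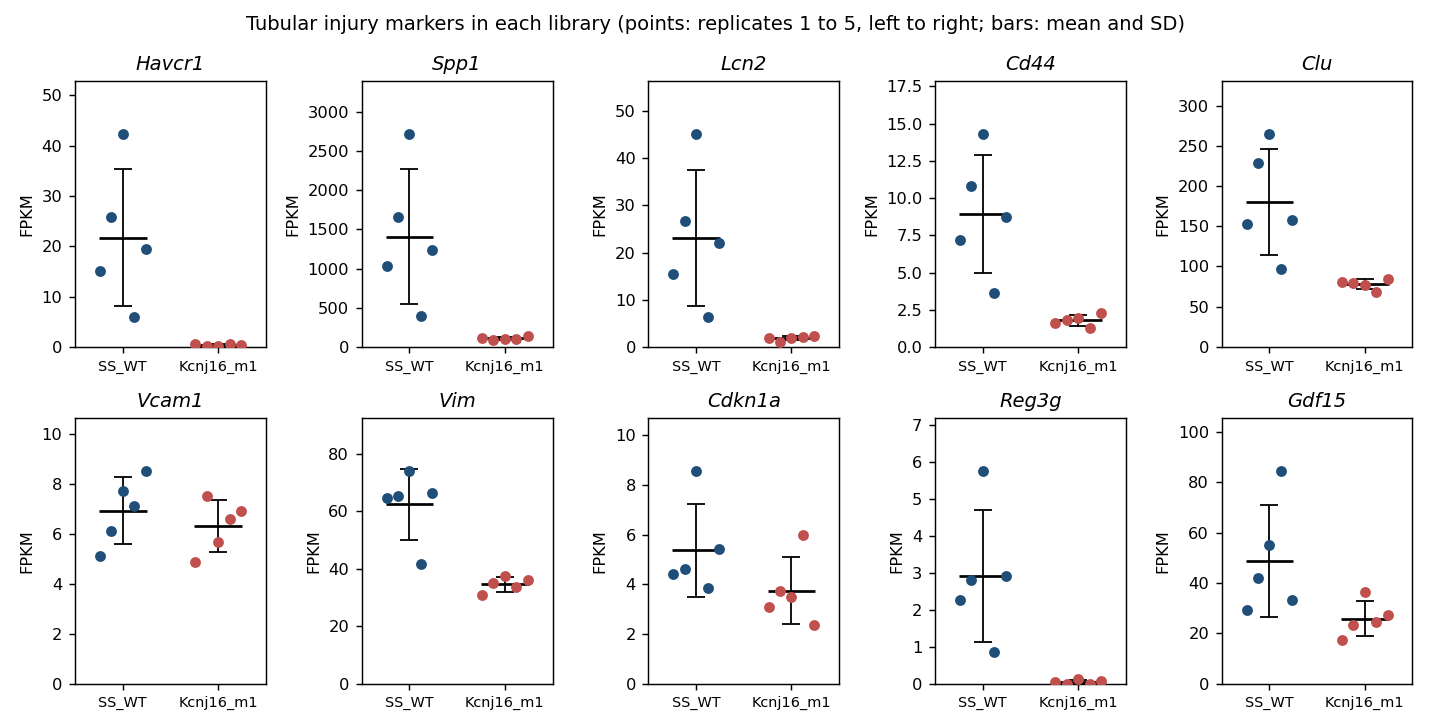
FPKM of each injury marker (vertical axis, from 0) in 5 SS_WT and 5 Kcnj16_m1 libraries; points are libraries, horizontal bars the mean and whiskers the SD. For Havcr1 the wild-type points run from 5.85 to 42.3 FPKM and the mutant points from 0.196 to 0.521 FPKM, while the Vcam1 points of both groups overlap.

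Havcr1 (ENSRNOG00000007243, chromosome 10, 31813814 to 31848379, plus strand) had the largest fold change of the 10. Coordinates are taken from the deposited table, and its build was not given in the sources used here. In wild-type replicates 1 to 5 Havcr1 measured 15.1, 25.8, 42.3, 5.85 and 19.5 FPKM. The mutants, again in replicates 1 to 5, gave 0.521, 0.196, 0.238, 0.495 and 0.384 FPKM. The groups did not overlap, and the lowest wild-type library was still 11.2 times the highest mutant. The mutant values rest on 13 to 47 reads per library and the wild-type values on 387 to 3014 reads. The log2 fold change was -4.44 (95% interval -5.33 to -3.55, limma adjusted p = 0.000101), and the exact two-sided permutation p was 0.00794, the smallest that 5 libraries against 5 allow.

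Spp1 (ENSRNOG00000043451, chromosome 14, 6673686 to 6679901, minus strand) was the most abundant marker in both groups. Wild-type replicates 1 to 5 gave 1032, 1659.5, 2714, 389.6 and 1238 FPKM, while mutant replicates 1 to 5 gave 114, 91.8, 105, 99.2 and 145 FPKM. Replicate 3 was again the highest and replicate 4 the lowest wild-type library, and replicate 4 was still 2.69 times the highest mutant. The log2 fold change was -3.42 (95% interval -4.31 to -2.52, limma adjusted p = 0.000392). Lcn2 (ENSRNOG00000013973, chromosome 3, 11414186 to 11417546, minus strand) measured 15.5, 26.8, 45.1, 6.33 and 22.0 FPKM in wild-type libraries 1 to 5. The mutant libraries gave 1.90, 1.13, 1.80, 2.18 and 2.37 FPKM. Its groups did not overlap either, and its values rest on as few as 17 reads in a mutant library. The log2 fold change was -3.09 (95% interval -3.99 to -2.19, limma adjusted p = 0.000670).

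Reg3g (chromosome 4, 109529679 to 109532234, minus strand) was low in wild type and almost absent in the mutants. Wild-type libraries 1 to 5 gave 2.25, 2.80, 5.75, 0.843 and 2.92 FPKM, from 11 to 81 reads. In the mutants it had 1, 0, 2, 0 and 1 reads in replicates 1 to 5, 4 in all against 196 in wild type. The size of its fold change therefore depends on the pseudocount, with a log2 fold change of -2.47 at 0.5 FPKM, -4.15 at 0.1 FPKM and -5.16 with limma-voom on the reads (limma adjusted p = 0.000610, 0.000240 and 0.00210). The related lectin gene Reg3b, which was below the filter and not tested, had a mean of 1.08 FPKM in wild type and was at 0 in every mutant library.

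Cd44, Clu and Vim fell by smaller folds. Cd44 (chromosome 3, 92696313 to 92783658, minus strand), the hyaluronan receptor that also binds osteopontin, measured 7.17, 10.8, 14.3, 3.64 and 8.75 FPKM in wild-type libraries 1 to 5. In the mutants it stood at 1.63, 1.79, 1.94, 1.24 and 2.28 FPKM. The groups were apart by a factor of 1.59 between the lowest wild-type and the highest mutant library (log2 fold change -1.95, SE 0.28, limma adjusted p = 0.00106). Clu (chromosome 15, 42640146 to 42665857, plus strand) stood at 153, 228, 264, 97.1 and 158 FPKM in wild type and at 80.5, 79.1, 77.6, 68.3 and 84.3 FPKM in the mutants. Clu in wild-type replicate 4 came within a factor of 1.15 of the highest mutant (log2 fold change -1.12, SE 0.22, limma adjusted p = 0.00426). Vim (chromosome 17, 80882666 to 80891212, plus strand) stood at 64.6, 65.1, 74.02, 41.5 and 66.4 FPKM in wild type, against 30.7, 35.1, 37.5, 33.7 and 36.0 FPKM in the mutants. Here 4 wild-type libraries were close together, and replicate 4 lay apart from them and near the mutants (log2 fold change -0.82, SE 0.13, limma adjusted p = 0.00178). For each of these genes the exact permutation p was 0.00794, the smallest possible.

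The remaining markers overlapped between the groups. Gdf15 (chromosome 16, 20555395 to 20557978, plus strand) measured 29.3, 42.1, 55.0, 84.6 and 33.3 FPKM in wild-type libraries 1 to 5, while mutant libraries 1 to 5 gave 17.4, 23.2, 36.3, 24.7 and 27.5 FPKM. It was highest in wild-type replicate 4, the library that was lowest for Havcr1, and mutant replicate 3 exceeded 2 wild-type libraries. The log2 fold change was -0.84 (SE 0.27, limma adjusted p = 0.0404, exact permutation p = 0.0317). Its call was lost on leaving out any 1 of 7 libraries, and without wild-type replicate 4 the log2 fold change was -0.62 with a limma adjusted p of 0.0594. Cdkn1a (chromosome 20, 6351458 to 6358864, plus strand) stood at 4.41, 4.63, 8.56, 3.86 and 5.41 FPKM in wild type and at 3.10, 3.75, 3.50, 5.97 and 2.37 FPKM in the mutants. Wild-type replicate 3 and mutant replicate 4 were each the highest of their group. The log2 fold change of Cdkn1a was -0.47 (95% interval -0.98 to 0.03, limma adjusted p = 0.146, exact permutation p = 0.127), and without mutant replicate 4 it was -0.64 (limma adjusted p = 0.0472). Vcam1 (chromosome 2, 219071193 to 219097619, minus strand) stood at 5.11, 6.10, 7.73, 7.11 and 8.51 FPKM in wild type and at 4.87, 7.51, 5.66, 6.59 and 6.93 FPKM in the mutants. Its groups overlapped almost fully, with a log2 fold change of -0.12 (95% interval -0.43 to 0.19, limma adjusted p = 0.571, exact permutation p = 0.468).

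**Figure D2:**
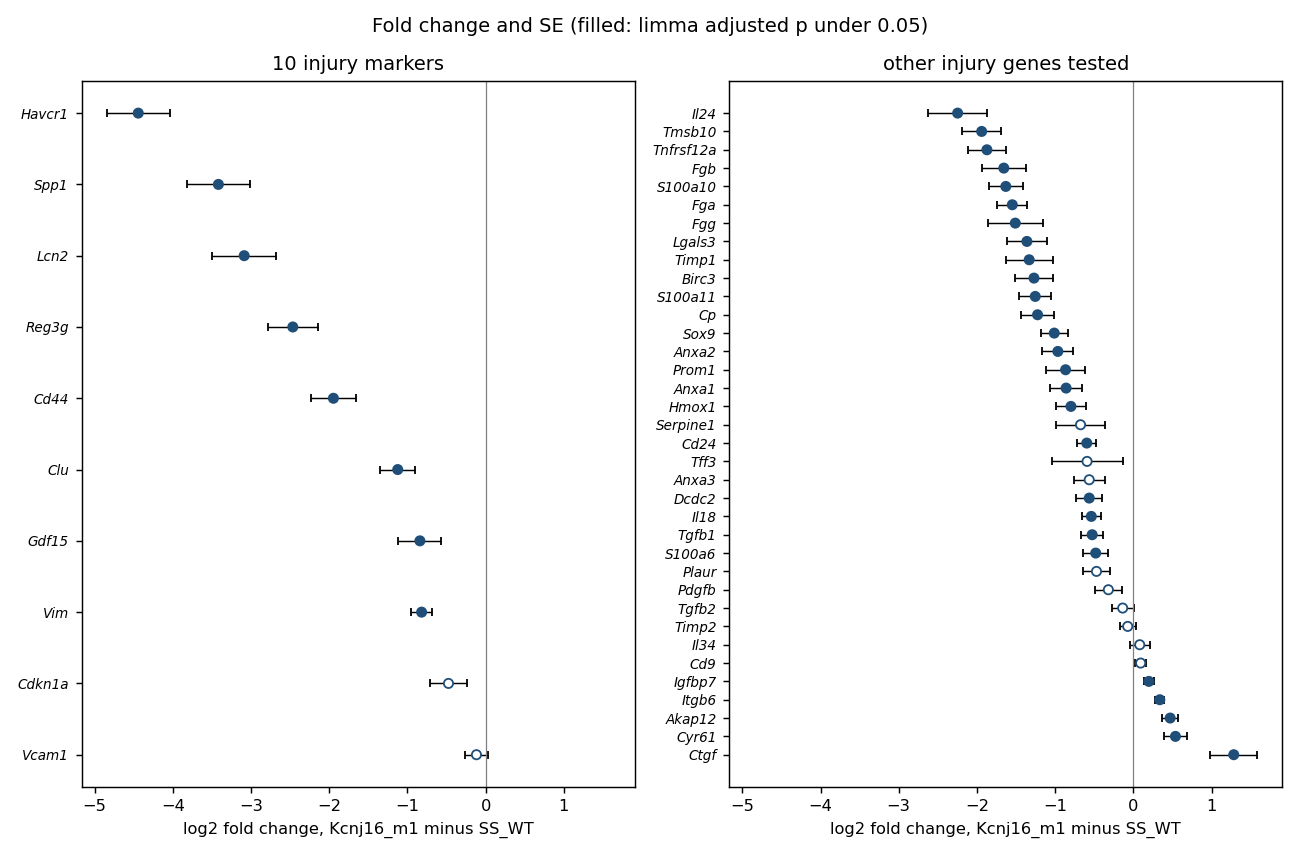
Log2 fold change, Kcnj16_m1 minus SS_WT, on the log2(FPKM + 0.5) scale (horizontal axis) with its SE, for the 10 markers (left) and the 36 tested genes of a list of other injury genes (right); filled points passed the limma test. The markers run from -4.44 for Havcr1 to -0.12 for Vcam1, and the other list from -2.25 for Il24, which was tested only through its wild-type level, to 1.28 for Ctgf.

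The second question was how far the markers differed between wild-type libraries. On the log2 scale the SD over the 5 wild-type libraries was 1.02 for Havcr1, 1.03 for Spp1 and 1.02 for Lcn2. These correspond to 7.22-fold, 6.97-fold and 7.13-fold gaps between the highest and the lowest wild-type library. The SD was 0.80 for Reg3g, 0.69 for Cd44, 0.61 for Gdf15 and 0.56 for Clu, and it was 0.41, 0.32 and 0.27 for Cdkn1a, Vim and Vcam1. The median gene tested had an SD of 0.16, and the share of genes with a wild-type SD at least as large was 1.38% for Spp1, 1.46% for Havcr1 and 1.47% for Lcn2, rising to 20.3% for Vcam1. Leaving out wild-type replicate 4 brought the SD of Havcr1, Spp1 and Lcn2 to 0.62, 0.61 and 0.63 and that of Vim to 0.09. Without wild-type replicate 3 the SD of Cdkn1a was 0.18.

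Mutant libraries lay closer together. For 9 of the 10 markers the SD was larger in wild type, the exception being Cdkn1a (0.41 in wild type and 0.43 in the mutants), and wild type had the larger SD for 70.4% of all genes tested. In the mutants the SD was 0.25 for Havcr1, Spp1 and Cd44, 0.32 for Lcn2, 0.15 for Reg3g and 0.11 for Clu and Vim. Mutant levels of Havcr1 (0.196 to 0.521 FPKM) and Reg3g (0 to 0.134 FPKM) lay near or under the 0.5 FPKM added before taking logs. That addition narrows the mutant SD of these 2 genes, so their difference in spread depends on it. The difference in spread was tested with limma on absolute deviations from the group mean, scaled up for the small number of libraries, across all genes. It passed for 3 genes, 0.0215% of those tested, and for none of the markers (lowest adjusted p 0.161, for Clu). On simulated data this test rarely passed after adjustment even where spread had been changed, so a marker that did not pass is not shown to be equally spread. At an unadjusted p under 0.05, 7 markers and 14.4% of all genes tested differed. For Havcr1 the mean scaled deviation was lower in the mutants by 0.58 (difference -0.58, 95% interval -1.07 to -0.08, limma adjusted p = 0.270). For Clu the difference in scaled deviation was -0.39 (95% interval -0.62 to -0.16). The larger wild-type spread of the markers is thus given as a description.

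**Figure D3:**
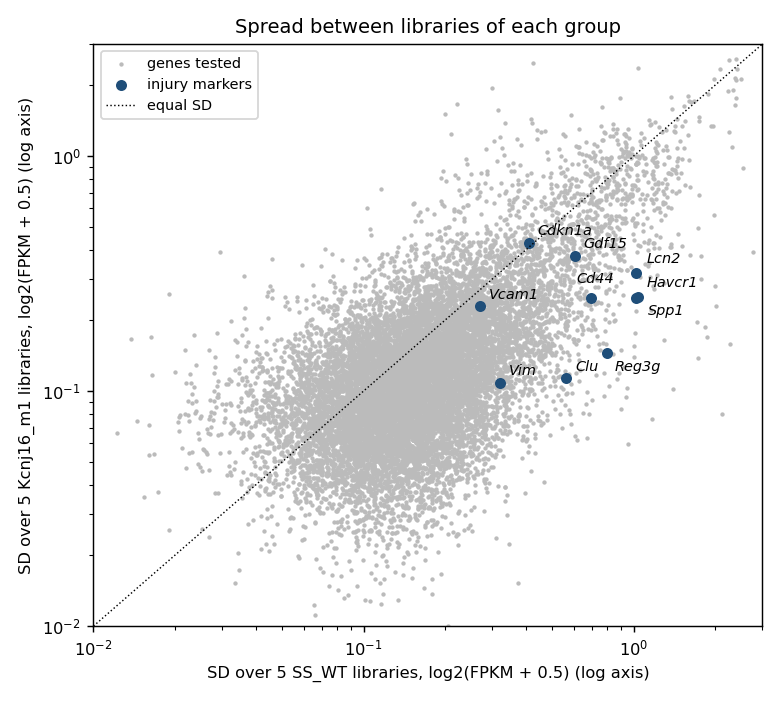
SD of log2(FPKM + 0.5) over the 5 SS_WT libraries (horizontal log axis) against that over the 5 Kcnj16_m1 libraries (vertical log axis) for all genes tested (grey) and the 10 markers (blue); the dotted line marks equal SD. Havcr1, Spp1 and Lcn2 lie to the right of the line near a wild-type SD of 1.02, and Cdkn1a lies next to the line.

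Wild-type libraries kept 1 order for 5 of the markers. Havcr1, Spp1, Lcn2, Cd44 and Clu were each highest in replicate 3, then in 2, 5 and 1, and lowest in replicate 4. This order was shared by 2.04% of all genes tested. Vim, Cdkn1a and Reg3g had the same library at the top and the same at the bottom and differed from it in the order of 1 of 10 pairs of libraries, replicates 2 and 5. In all, 8 of 10 markers were highest in replicate 3 and lowest in replicate 4, as were 7.93% of all genes tested. Vcam1 and Gdf15 each ordered 6 of the 10 pairs as Havcr1 did. With 5 libraries in a group no correlation was computed.

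The size of the steps was nearly equal for 3 of these genes. In replicates 1 to 5 Havcr1 deviated from its wild-type mean by -0.25, 0.50, 1.20, -1.55 and 0.10 on the log2 scale. The deviations of Spp1 were -0.19, 0.50, 1.21, -1.59 and 0.08, and those of Lcn2 were -0.31, 0.46, 1.20, -1.54 and 0.18. Cd44 and Clu took the same direction in smaller steps, with deviations of 0.77 and 0.63 in replicate 3 and of -1.07 and -0.81 in replicate 4. Gdf15 went the other way in replicate 4, with a deviation of 0.89, and had 0.28 in replicate 3. The ratio of Spp1 to Havcr1 was accordingly almost constant in wild type, at 68.2, 64.2, 64.2, 66.6 and 63.5 in replicates 1 to 5, while Havcr1 itself varied 7.22-fold. Lcn2 was 1.03, 1.04, 1.07, 1.08 and 1.13 times the level of Havcr1. Reg3g, despite its few reads, kept between 0.109 and 0.150 times that level.

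**Figure D4:**
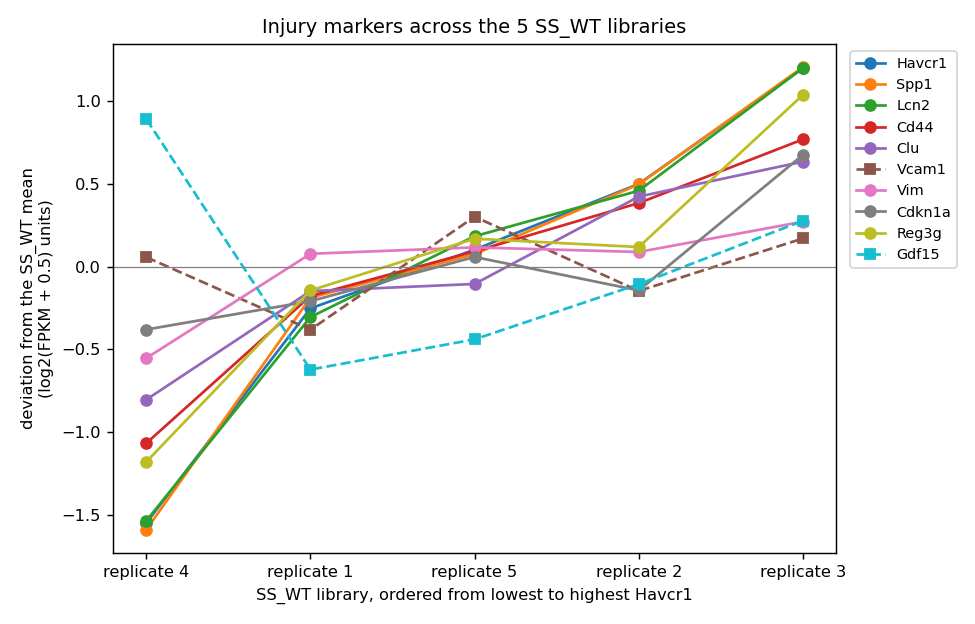
Deviation of each marker from its own SS_WT mean on the log2(FPKM + 0.5) scale (vertical axis) in the 5 SS_WT libraries, ordered along the horizontal axis from the lowest to the highest Havcr1; solid lines are the 8 markers lowest in replicate 4 and dashed lines Vcam1 and Gdf15. The lines of Havcr1, Spp1 and Lcn2 nearly coincide, from about -1.55 to 1.20, and the Gdf15 line starts at 0.89.

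In the mutants the ratios of Spp1 and Lcn2 to Havcr1 were higher and varied more between libraries. Spp1 was 218, 469, 443, 200.3 and 377 times as high as Havcr1 in mutant replicates 1 to 5. Lcn2 was 3.65, 5.76, 7.58, 4.40 and 6.16 times as high as Havcr1 in the same libraries. Every mutant ratio of both genes lay above every wild-type ratio. The mutant values rest on few reads, 13 to 47 per library for Havcr1 and 17 to 40 for Lcn2. Whether the mutant ratios varied beyond counting noise was not tested. No 1 order of libraries held across the markers in the mutants. Havcr1 was highest in replicate 1, Spp1, Lcn2, Cd44 and Clu in replicate 5, and Vim, Reg3g and Gdf15 in replicate 3. At the low end the markers were more alike, since Havcr1, Spp1 and Lcn2 were all lowest in mutant replicate 2. Cd44 and Clu were both lowest in mutant replicate 4. The Reg3g order rests on 0 to 2 reads per mutant library. Gdf15 was 14.4 times as high as Havcr1 in wild-type replicate 4, at most 1.93 times in the other 4 wild-type libraries and from 33.4 to 153 times in the mutants.

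**Figure D5:**
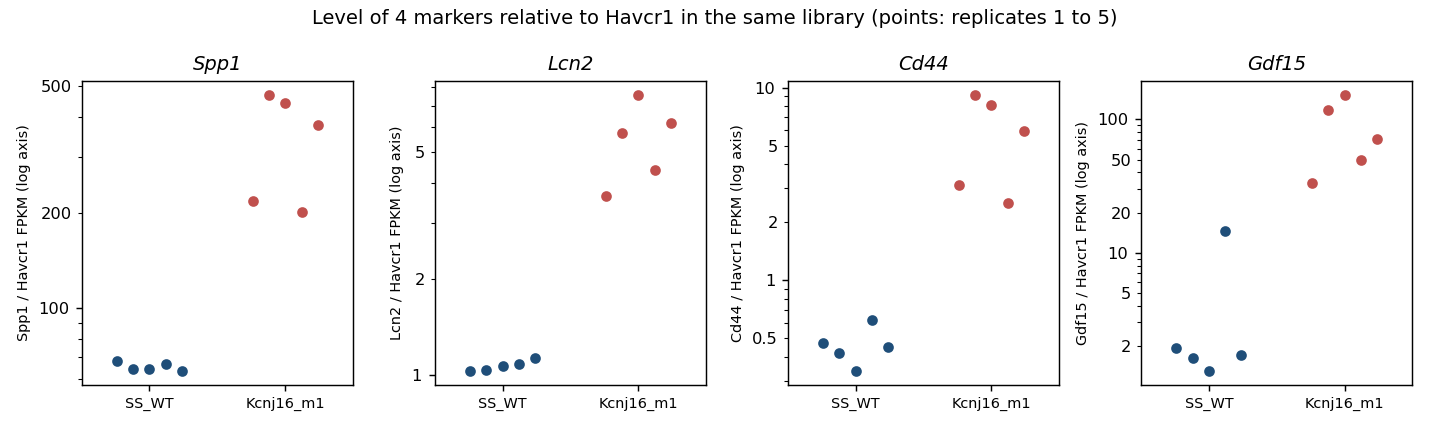
Ratio of the FPKM of Spp1, Lcn2, Cd44 and Gdf15 to that of Havcr1 in the same library (vertical log axes) for 5 SS_WT and 5 Kcnj16_m1 libraries; each point is 1 library. Wild-type points for Spp1 lie between 63.5 and 68.2 and those for Lcn2 between 1.03 and 1.13, below all mutant points, and Gdf15 has 1 wild-type library, replicate 4, at 14.4.

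The sequences just upstream of these genes were compared, since the data show 3 of them moving in step and others not. RefSeq (GRCr8) promoter windows, from 250 bases before to 50 after the start site, were found for 9 of the 10 markers in 10 windows, with 2 for Gdf15 and none for Clu. Motifs were searched on both strands and matches could overlap. The windows are shown 5′ to 3′ for Havcr1, Spp1 and Lcn2, which moved in step, and for Vcam1 and Cdkn1a, which did not pass the level test, with motif matches in capitals.
Havcr1, chr10:31629528-31629827, plus strand: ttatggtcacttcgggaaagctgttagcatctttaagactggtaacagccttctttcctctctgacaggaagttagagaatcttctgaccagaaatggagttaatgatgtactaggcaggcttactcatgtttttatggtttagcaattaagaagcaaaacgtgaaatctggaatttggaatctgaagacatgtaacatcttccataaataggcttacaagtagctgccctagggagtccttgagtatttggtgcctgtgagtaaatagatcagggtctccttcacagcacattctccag
Spp1, chr14:5619755-5620054, minus strand: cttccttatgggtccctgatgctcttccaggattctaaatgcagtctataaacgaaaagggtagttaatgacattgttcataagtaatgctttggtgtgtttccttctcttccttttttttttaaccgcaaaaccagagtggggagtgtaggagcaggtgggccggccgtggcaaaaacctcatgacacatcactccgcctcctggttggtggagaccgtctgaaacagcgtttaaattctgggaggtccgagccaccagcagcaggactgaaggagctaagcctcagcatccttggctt
Lcn2, chr3:36081731-36082030, minus strand: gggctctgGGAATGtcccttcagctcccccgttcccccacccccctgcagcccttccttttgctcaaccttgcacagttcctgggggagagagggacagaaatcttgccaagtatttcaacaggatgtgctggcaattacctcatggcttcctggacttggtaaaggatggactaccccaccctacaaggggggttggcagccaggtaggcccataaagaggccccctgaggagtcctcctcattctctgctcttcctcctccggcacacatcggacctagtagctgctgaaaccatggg
Vcam1, chr2:206742734-206743033, minus strand: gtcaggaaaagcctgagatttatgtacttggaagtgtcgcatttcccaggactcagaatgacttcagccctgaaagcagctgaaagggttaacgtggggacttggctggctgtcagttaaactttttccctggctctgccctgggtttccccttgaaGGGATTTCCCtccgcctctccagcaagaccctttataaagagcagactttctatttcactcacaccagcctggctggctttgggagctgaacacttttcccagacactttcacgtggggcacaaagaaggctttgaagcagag
Cdkn1a, chr20:7150682-7150981, plus strand: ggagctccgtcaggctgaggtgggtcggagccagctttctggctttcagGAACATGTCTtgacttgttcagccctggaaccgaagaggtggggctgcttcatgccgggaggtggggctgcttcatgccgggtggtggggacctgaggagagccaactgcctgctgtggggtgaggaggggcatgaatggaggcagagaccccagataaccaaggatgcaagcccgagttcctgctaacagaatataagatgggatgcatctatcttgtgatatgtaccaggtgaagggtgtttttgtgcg

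No window of a marker held the STAT motif TTCNNNGAA, the AP-1 motif TGANTCA or the C/EBP-ATF4 motif TGATGNAA, which were present in 8.87%, 7.33% and 3.98% of all 33469 windows. The NF-kB motif was present in the windows of Vcam1, Vim and Reg3g and in 5.02% of all windows, with its match in Vcam1 starting 93 bases before the start site. The p53 decamer motif was present in the window of Cdkn1a, which p53 is known to induce, and in 7.98% of all windows. The TEAD motif GGAATG was present in that of Lcn2 and in 14.2% of all windows. Havcr1 and Spp1 held none of the motifs searched. A match is a run of letters in the reference and is not evidence of binding in these kidneys.

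Genes outside the 10 were ranked by how close their wild-type deviations lay to those of Havcr1, leaving out genes with provisional symbols. The closest were Car3, Il19, C4b, Ubd, Mmp12, Socs3, Kcne5 and Cfi, by the root mean square difference over 5 libraries (0.14 for Car3 to 0.24 for Cfi, on the log2 scale). For comparison that difference was 0.04 for Spp1, 0.05 for Lcn2, 0.25 for Reg3g and 1.23 for Gdf15. The 8 genes include the carbonic anhydrase Car3, the cytokine Il19, the complement genes C4b and Cfi, the macrophage elastase Mmp12 and Socs3, the feedback inhibitor of STAT3. Mmp12 measured 2.95, 4.51, 6.47, 1.16 and 3.75 FPKM in wild-type libraries 1 to 5 and 0.946 to 1.24 FPKM in the mutants, so that replicate 4 lay among the mutants. Socs3 measured 6.20, 9.91, 20.5, 3.36 and 7.45 FPKM in wild type and 3.57, 1.84, 2.10, 1.91 and 2.51 FPKM in the mutants, where replicate 1 also exceeded the lowest wild-type library. All 8 fell in the mutants, with log2 fold changes from -3.31 for Il19 to -1.27 for Mmp12 (limma adjusted p from 0.000231 to 0.0108). Over all genes tested 14.0% were lower. The 8 were picked by likeness to Havcr1 in these same data, so the count is a description only. Car3 measured 0.274, 0.631, 0.391, 0.153 and 0.682 FPKM in mutant libraries 1 to 5, mostly under the filter. It too was tested only because wild type was high. Il19 had a mean of 5.68 FPKM in wild type and 0.0348 FPKM in the mutants, and Kcne5 had means of 2.36 and 0.420 FPKM. Neither reached the filter in any mutant library, so both were tested only because wild type was high, and their fold changes depend on the pseudocount and add no support. C4b overlaps its close copy C4a and Ubd overlaps other genes, so their values are uncertain.

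Other genes known to rise in injured tubules were mostly lower in the mutants. Of the 36 tested in this list, 22 were lower, 5 higher and 9 did not pass. Over all genes tested 14.0% were lower and 14.6% higher, so the 5 higher are near the share of all genes. The median log2 fold change was -0.63 against 0.0079 for all genes tested. One of the 22, Il24, had a mean of 2.57 FPKM in wild type and 0.0378 FPKM in the mutants and reached the filter in no mutant library, so it had to differ and its fold change depends on the pseudocount. Tmsb10, an actin-binding peptide gene, fell from 234 ± 93.5 to 56.5 ± 5.07 FPKM (SD, n = 5 per group, limma adjusted p = 0.000575). Tnfrsf12a, the receptor of the cytokine TWEAK, fell from 32.8 ± 14.0 to 7.96 ± 0.363 FPKM, the fibrinogen chain gene Fga from 10.6 ± 3.02 to 3.24 ± 0.748 FPKM and S100a10 from 156 ± 59.5 to 47.1 ± 2.85 FPKM (limma adjusted p = 0.000579, 0.000511 and 0.000698). The 5 that rose, named after their values were seen, were the YAP and TEAD targets Ctgf and Cyr61 (now Ccn2 and Ccn1), Akap12, the integrin chain Itgb6 and the secreted binding protein Igfbp7. Ctgf had a mean of 44.0 FPKM in wild type against 116 FPKM in the mutants (log2 fold change 1.28, SE 0.30, limma adjusted p = 0.0101), opposite to Havcr1. Igfbp7 overlaps other genes and is uncertain. In wild type 26 of the 36 were highest in replicate 3, 22 were lowest in replicate 4 and 12 had the full order of Havcr1. Over all genes tested 23.2% were highest in replicate 3 and 19.7% lowest in replicate 4. Of 4 tested keratin genes of injured and duct epithelium, 3 were lower, Krt7, Krt8 and Krt19, with log2 fold changes of -0.24, -0.51 and -0.54, and Krt18 did not pass. Krt19 overlaps Krt14 and is uncertain.

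The calls among binding partners are to be read against all genes tested, of which 28.5% passed, 14.6% as higher and 14.0% as lower. Among receptors and ligand-making enzymes of osteopontin, CD44 and VCAM-1, 2 of 13 tested were higher, 2 lower and 9 did not pass (median log2 fold change 0.0071), and 1 was higher on leaving out wild-type replicate 2 or mutant replicate 1, 3 or 4. Itga4, which pairs with Itgb1 as the leukocyte receptor for VCAM-1, fell from 1.23 ± 0.223 to 0.583 ± 0.186 FPKM and Itgb1 from 94.9 ± 5.79 to 80.6 ± 3.91 FPKM (limma adjusted p = 0.00649 and 0.00938). Itgb5 and the hyaluronidase Hyal1 rose by log2 fold changes of 0.32 and 0.44, and Itgb5 overlaps another gene and is uncertain. Of 6 tested uptake receptors for lipocalin and clusterin, 2 were higher, 1 lower and 3 did not pass, but 4 were higher without wild-type replicate 1, 2 without wild-type replicate 5 and 1 without any other single library. Vldlr was higher by a log2 fold change of 0.19 (limma adjusted p = 0.0456). The myeloid receptor Trem2, which binds clusterin, fell from 2.43 ± 1.12 to 0.550 ± 0.0664 FPKM, with the wild-type order of Havcr1. The lipocalin receptor gene Slc22a17 stood at 11.7 ± 0.886 and 13.2 ± 0.492 FPKM and did not pass (limma adjusted p = 0.0507). In the list of ligands, sheddases and engulfment genes around kidney injury molecule-1, 2 of 8 tested were higher and 6 did not pass. These were the engulfment receptor gene Mertk and the bridging protein gene Mfge8, with log2 fold changes of 0.29 and 0.26 (limma adjusted p = 0.0175 and 0.00489). Mertk overlaps a small RNA gene and is uncertain.

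Pathways known to induce single markers were also counted. Of 15 tested p53 targets other than Cdkn1a, 2 were higher, 2 lower and 11 did not pass (median log2 fold change 0.011), shares near the 14.6% and 14.0% of all genes tested. Sesn1 and Tp53inp1 rose by log2 fold changes of 0.43 and 0.45. Aen, an exonuclease gene, and the death receptor gene Tnfrsf10b fell, with log2 fold changes of -0.24 and -0.50 (limma adjusted p = 0.0138 and 0.0144). Mdm2, whose product degrades p53, had means of 13.2 and 14.8 FPKM and did not pass (limma adjusted p = 0.0828). Sesn1 overlaps another gene and is uncertain. For Gdf15 the genes of the integrated stress response were taken, of which 4 of 9 tested were higher, 2 lower and 3 did not pass. Leaving out wild-type replicate 2 or mutant replicate 1, 2 or 4 left 2 higher. Psat1, a serine synthesis gene, rose from 89.0 ± 13.7 to 140.2 ± 6.88 FPKM and Vegfa from 61.3 ± 8.89 to 83.3 ± 6.71 FPKM (limma adjusted p = 0.000814 and 0.00536). Atf3 and Asns went the other way, with log2 fold changes of -1.15 and -0.80 (limma adjusted p = 0.00155 and 0.00713). In wild type 4 of the 9, Ddit3, Sesn2, Ppp1r15a and Vegfa, were highest in replicate 4, as Gdf15 was. The others, Atf4, Atf3, Asns, Ddit4 and Psat1, were highest in replicates 5, 3, 2, 3 and 1. The share of all genes highest in replicate 4 was not computed, so these genes are not shown to follow Gdf15. Ddit3 overlaps another gene and is uncertain. For Reg3g the list was that of gp130, IL-22 receptor and STAT3 signalling, of which 2 of 11 tested were higher, 5 lower and 4 did not pass (median log2 fold change -0.23), Il19 having been tested only through its wild-type level. Il19 and Socs3 fell, the receptor chain gene Il20ra rose from 2.32 ± 0.447 to 6.14 ± 0.821 FPKM and Lifr rose by a log2 fold change of 0.45 (limma adjusted p = 0.000147 and 0.00868). Stat3 itself stood at 37.2 and 34.5 FPKM and did not pass (limma adjusted p = 0.201), but had the wild-type order of Havcr1.

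Several markers are also expressed by cells other than tubule cells, and in bulk cortex fewer cells of a type and less RNA per cell cannot be told apart. Over all genes tested 14.0% were lower and 14.6% higher, and the counts below are to be read against these shares. Spp1, Cd44 and Vim are known in macrophages, of whose list 12 of 14 tested members were lower and 2 did not pass. That list summed to 873 to 1162 FPKM in the wild-type libraries and to 684 to 857 FPKM in the mutants. In wild-type replicates 1 to 5 the sum was 891, 1141, 1162, 873 and 1155 FPKM. Most of it was Cd74, which had a wild-type mean of 821 FPKM and was highest in replicate 2. Of T, B and NK cell markers all 8 tested were lower, with sums of 25.3 to 38.6 FPKM in wild type and 14.1 to 18.0 FPKM in the mutants. Among them Cd3e, Cd3d and Cd2 had mutant means of 0.394, 0.342 and 0.305 FPKM, under the filter of 0.5 FPKM. They were thus tested at least in part because wild type was high, which limits this count. Vim and Vcam1 are known in fibroblasts and pericytes. Of that list 3 of 7 tested members were lower, 1 was higher (0 in 12 of 20 alternative settings) and 3 did not pass. Its sums were 172 to 297 FPKM in wild type, highest in replicate 3, and 113 to 146 FPKM in the mutants. The largest part of these sums was Dcn, with means of 119 FPKM in wild type and 52.4 FPKM in the mutants. Neutrophils store lipocalin. Their list summed to 0.859 to 1.61 FPKM in wild type and 0.813 to 1.73 FPKM in the mutants, its granule genes Mpo and Elane were at 0 in all 10 libraries, and none of its 8 members reached the filter. The part of these cells in the marker values was not tested.

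Endothelium can carry Vcam1, and most of its other markers were higher. Of these, 5 of 8 tested were higher and 3 did not pass, with sums of 112 to 133 FPKM in wild type and 158 to 165 FPKM in the mutants. This count and the following ones are to be read against all genes tested, of which 14.6% were higher and 14.0% lower. Of proximal tubule markers 9 of 19 were higher and 10 did not pass, and the summed level was 11010 to 11745 FPKM in the mutants. Podocyte markers were higher for 5 of 6 and thick ascending limb markers for 2 of 6, a count that ran from 0, without mutant replicate 4, to 2 on leaving out 1 library. Of distal tubule markers 2 of 4 tested were higher and 2 lower, with Pvalb at 0 in all libraries, of collecting duct markers 6 of 8 were higher and 1 lower, and of 3 tested inner medulla markers the tight junction gene Cldn4 alone was lower. On the first principal component of all genes tested, wild-type replicate 1 and not replicate 4 lay nearest to the mutants, at -8.47 against -13.6, with the mutants between 20.5 and 24.2.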

How the data were processed

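Polyadenylated RNA of 10 kidney cortex libraries was analysed from 1 deposited table of FPKM values, made by the authors, with symbols, lengths and coordinates per the file header. The submitters' processing notes name featureCounts 1.5.0-p3, StringTie 1.3.3b, HISAT2 2.0.5 and fastp. Build, annotation and use of strand were not given in the sources used here. No marker overlaps another gene of the table. Columns were matched to samples by the identifier in the titles, and groups are the genotype labels. FPKM times gene length gave whole multiples of 1 step per library for 100% of values (tolerance 0.05 reads), and these reads give the depth. Within-group pairs of libraries differed beyond counting noise (chi-square per gene from 7.02), so none was taken for a library deposited again, which does not show separate animals.

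Genes that reached 0.5 FPKM in 5 or more libraries were tested on log2(FPKM + 0.5) with limma 3.58.1 (R 4.3.3, moderated with a mean trend), two-sided, with Benjamini-Hochberg adjustment over all 13971 genes and a threshold of 0.05. Fold changes are Kcnj16_m1 minus SS_WT and understate low genes. Single markers also got an exact permutation test. Spread was tested with the same model on absolute deviations, each multiplied by the square root of n/(n - 1) for n libraries in the group. The fits were tested on simulated data. Named genes are the 10 markers, up to 4 per list with the smallest adjusted p, and the 8 genes of at least 1 FPKM closest to Havcr1, and others are named after their values were seen. The values of 1 gene that the rule names are not reported here. The markers and lists were chosen with earlier results of these data known. Of 241 list entries, 233 matched by symbol, 2 by another name of the gene in RefSeq and 6 not. Alternatives were other pseudocounts, filters, scalings and variance models, limma-voom on the reads, and leaving out libraries.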

Additional observations from a re-analysis of the deposited data

Results flagged for a closer look

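Among 58 groups of 5 values looked at (each marker and each list sum in each genotype), 4 held a library far from the rest by Dixon's criterion, which chance gives in about 1 of 20 groups. Vim in wild-type replicate 4 stood at 41.5 FPKM and in the other wild-type libraries at 64.6 to 74.02 FPKM. The summed thick ascending limb list was 492 FPKM in wild-type replicate 3 against 957 to 1123 FPKM, and 847 FPKM in mutant replicate 3 against 966 to 986 FPKM. The summed neutrophil list was 1.73 FPKM in mutant replicate 3 against 0.813 to 0.969 FPKM, a level close to no signal.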

How the results depend on the processing

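Over 192 fold changes of the markers under alternative settings, all 192 kept their direction and 183 their side of the threshold. The count of lower markers ran from 6 to 8. Reg3g and Havcr1 gave no value where leaving out libraries or a stricter filter put them under the filter, which lowers the count by construction. Gdf15 did not pass with no filter (log2 fold change -0.84, adjusted p = 0.0696), and its log2 fold change ran from -0.996 to -0.62 on leaving out 1 library, with adjusted p up to 0.0933. That of Cdkn1a ran from -0.64 to -0.31, and it passed only without mutant replicate 4. The number of genes that differ in spread was 3, and it was 2094 with no filter, 1 with a filter of 1 FPKM, 0 with quantile normalization, 0 with limma-voom and 274 without the 2 wild-type libraries of the lowest label numbers, where 1 marker (Clu, adjusted p = 0.0169) passed. It ran from 0 to 3 on leaving out 1 library. The cause was not tested. The spread difference changed sign for Vcam1 (-0.11 to 0.0433 on leaving out 1 library, 0.10 without those 2 libraries), Vim (-0.22 to 0.0134), Cdkn1a (-0.12 to 0.18, and 0.0038 with a pseudocount of 0.1) and Reg3g (0.20 with limma-voom), none of which passed in either direction. No paired analysis was possible because the labels carry no replicate numbers and name no pairing. Of the counts within the other gene lists, the number higher moved by over 1.5 times in at least 5 of 20 alternatives for thick limb, fibroblast and stress response genes and for the partners of osteopontin, lipocalin and clusterin. Counts near 0 reads limit Reg3g and Havcr1 in the mutants.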
